A study of Mus musculus with 13 samples.

Results

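The interferon-stimulated genes described here are 38 mouse genes that cells switch on when they sense interferon, chosen as a list by name and found in the expression table of the pancreas by their Entrez identifiers. All 38 were present among the 23366 genes measured. Pancreas RNA came from 13 female mice, 1 library per mouse: 4 young mice of 13 weeks, 5 old mice of 55 weeks, and 4 old-OSKM mice, to which the sample labels give 58 weeks. All 13 were of the i4F-B strain, in which doxycycline turns on the reprogramming factors Oct4, Sox2, Klf4 and Myc (OSKM) from a cassette that sits within Pparg. The study reports that its expression is uneven between cell types. In the pancreas of a young mouse, shortly after an injection of doxycycline, SOX2 was broad in acinar cells but missing from most endocrine cells. The old-OSKM mice drank doxycycline in water with sucrose for 7 days and recovered for 2 weeks, whereas the young and old mice were untreated. Doxycycline itself, the sucrose, OSKM and the 3 additional weeks of age therefore cannot be told apart in this comparison. Values are log2 RPKM (read numbers scaled by transcript length and by the reads mapped in a library), a scale per length on which 0 stands for 1 RPKM, and all differences below are differences of log2 RPKM.

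Interferons are signalling proteins released mostly by infected or immune cells. Type I and type III interferons act through receptors and Janus kinases on STAT proteins, among them STAT2, which bind DNA together with IRF9 at the interferon-stimulated response element (ISRE). Interferon gamma acts through STAT proteins without IRF9 at the gamma-activated site (GAS), and the gene products cut, bind or trap viral RNA, mark proteins with ISG15, attack the membranes around intracellular pathogens, or call in T cells. Most cell types can respond, so in a tissue rich in acinar cells the signal may come from the acinar cells, the stroma or the leukocytes, and in bulk tissue more cells of a type and more RNA per cell cannot be told apart.

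The response elements can be read in the promoters. RefSeq promoters (GRCm38.p6, from 250 bases before to 50 bases after the annotated start) were at hand for 27 of the 38 members. The ISRE was searched as GAAANNGAAA on both strands and the GAS as TTCNNNGAA, whose letters read the same on both strands. An ISRE match lay in the window of 16 of the 27 members (59.3%), against 3.92% of the 17736 genes of the table with a promoter, and a GAS match in 7 of 27 (25.9%), against 9.10%. The 8 windows below show ISRE matches in members of different roles, and the last shows the GAS match of Irf1. Capitals mark the match, and each is written 5′ to 3′ on the strand of its gene, so that a match on the other strand appears as its reverse complement.
Stat2: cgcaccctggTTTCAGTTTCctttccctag
Ifit1: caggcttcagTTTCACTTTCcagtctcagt
Ifit3: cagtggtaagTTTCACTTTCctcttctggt
Isg15: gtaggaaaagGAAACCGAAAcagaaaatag
Bst2: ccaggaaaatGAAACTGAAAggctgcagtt
Gbp2: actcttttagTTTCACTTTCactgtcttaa
Irgm1: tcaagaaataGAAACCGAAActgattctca
Cxcl10: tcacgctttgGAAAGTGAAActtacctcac
Irf1: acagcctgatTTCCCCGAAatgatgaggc
The window of Stat2 is chr10:128270266-128270295 on the plus strand, that of Ifit1 chr19:34640775-34640804 (plus), and that of Ifit3 chr19:34583363-34583392 (plus). Isg15 was read at chr4:156200871-156200900 (minus), Bst2 at chr8:71537577-71537606 (minus) and Gbp2 at chr3:142620594-142620623 (plus). The windows of Irgm1, Cxcl10 and Irf1 are chr11:48871425-48871454 (minus), chr5:92349083-92349112 (minus) and chr11:53769914-53769942 (plus). Isg15 holds 3 overlapping ISRE matches, 78, 72 and 66 bases before the start, and in Bst2 a GAS match 136 bases before the start overlaps the ISRE match at 130 bases. The windows of Oasl1, Oasl2, Irf7 and Irf9 held neither set of letters. A match is a description of the letters and shows no binding.

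**Figure D1:**
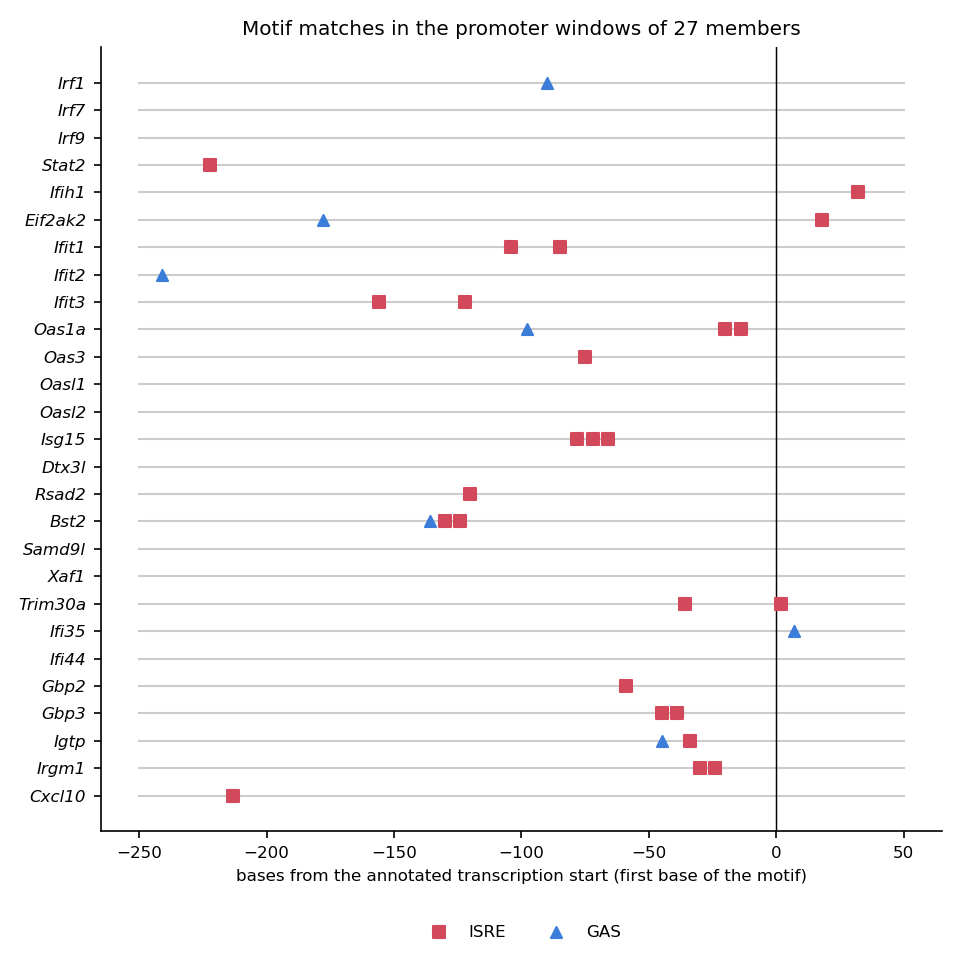
Positions of ISRE (red squares) and GAS (blue triangles) matches in the promoter windows of 27 members, in bases from the annotated start (first base of the match), each grey line being 1 gene. Of the 16 members with an ISRE, Ifih1 and Eif2ak2 have theirs after the start, and the others have at least 1 before it.

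One library stood apart before any comparison was made. Old-OSKM mouse 1 was the highest of the 13 mice in 38 of 38 members, which holds for 8.49% of all genes. Its members lay 0.69 to 2.70 above the mean of the old mice, with a median of 1.79, and their summed RPKM was 105 against 32.5 to 48.4 in the other mice. The same median deviation was -0.04, 0.40 and 0.47 in old-OSKM mice 2, 3 and 4, 0.45 in young mouse 4, and between -0.31 and 0.15 in the remaining mice. In 15 members it exceeded every other mouse by more than 2-fold. Over all genes, 231 exceeded every other mouse by more than 2-fold in this library, 232 did so in young mouse 3 and 68 in old-OSKM mouse 4, while no other library had more than 10. At the other end, old mouse 3 was the lowest mouse in 18 members. Counts and differences for the old-OSKM mice are therefore also given without mouse 1.

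**Figure D2:**
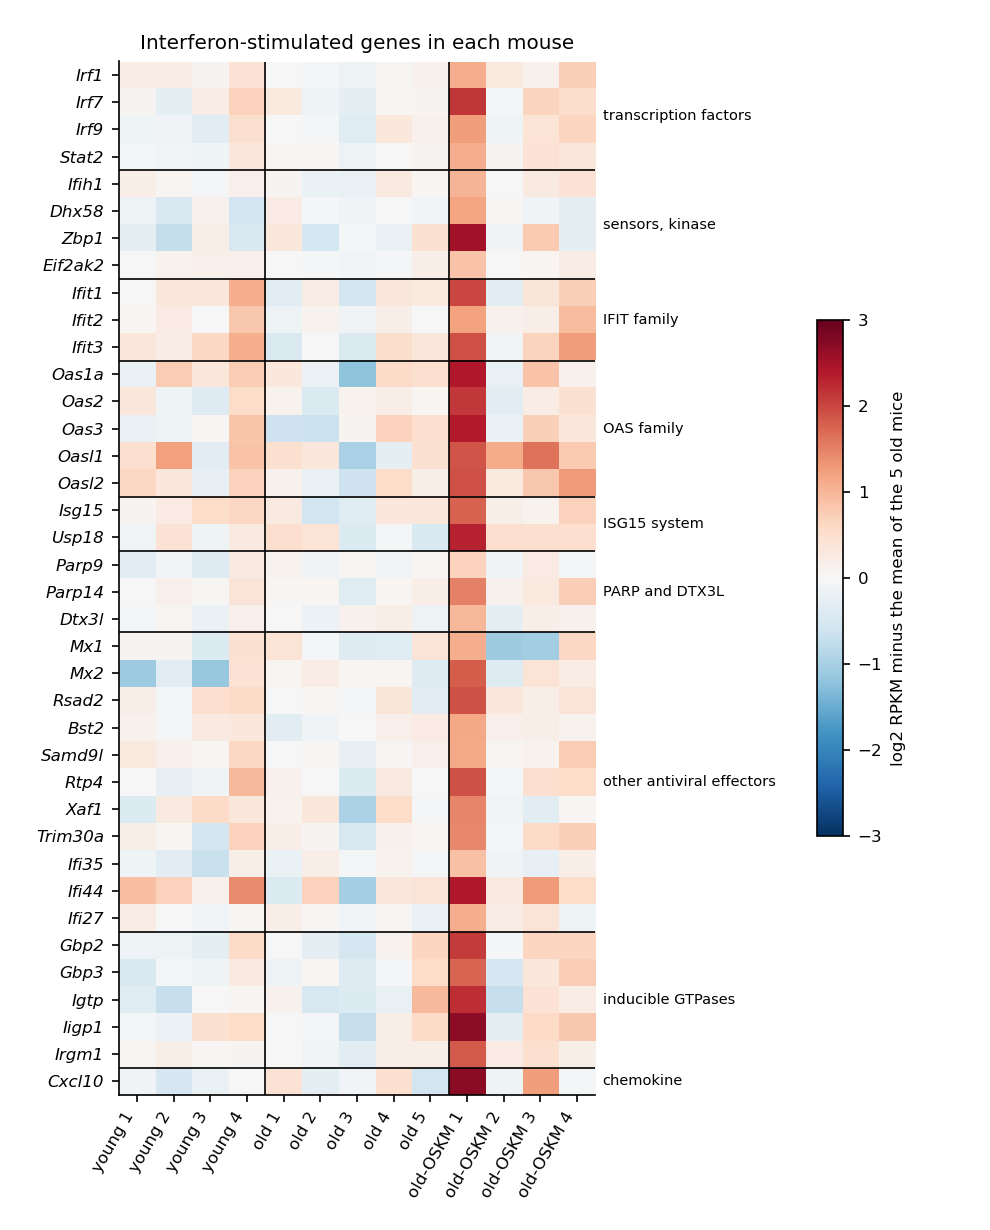
Log2 RPKM of the 38 members in each of the 13 mice, drawn as the difference from the mean of the 5 old mice (red higher, blue lower), with genes grouped by role. The column of old-OSKM mouse 1 is red in every row (0.69 to 2.70), and no other column is of 1 colour throughout.

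Many immune cell markers and most adipocyte markers moved along with the members in old-OSKM mouse 1. No endothelial, duct, fibroblast and stellate or erythroid marker was highest in it, and the sum of islet alpha and delta cell markers was the lowest of the 13 mice (12.9). Summed RPKM of 4 leukocyte markers (Ptprc, Cd52, Coro1a and Laptm5) was 16.6 in old-OSKM mouse 1, 3.77 to 7.52 in the other old-OSKM mice, 3.45 to 5.70 in old mice and 3.58 to 4.81 in young mice, and all 4 were highest in mouse 1. Of 9 macrophage and monocyte markers, 8 were highest in mouse 1, and their sum was 19.6 there, 7.94, 9.24 and 13.6 in old-OSKM mice 2, 3 and 4, 5.73 to 9.58 in old mice and 6.63 to 10.8 in young mice. Of 10 T and NK cell markers 8 were highest in mouse 1, and Gzma (-2.19) and Ncr1 (-2.05) were not. The list summed to 9.18 in mouse 1 and to between 1.34 and 3.16 elsewhere, with Cd3e at 0.69 and Cd8a at -0.51 in mouse 1 and at most -1.15 and -2.06 in any other mouse. B and plasma cell markers (6 of 7 highest in mouse 1, sum 41.9 against 29.8 to 39.6) and dendritic cell markers (4 of 8, sum 5.70 against 2.96 to 4.61) were high in it too. Most of the B and plasma cell sum came from Xbp1, the marker that was not highest in mouse 1 (4.83, against 4.81 to 5.1 elsewhere). That sum therefore says little about the other 6. The macrophage list also differed between the groups: 9 of 9 markers were higher in old-OSKM than in old mice and 7 had a raw p under 0.05, and without mouse 1 there were 9 and 5. Fibroblast and stellate cell markers (6 of 6 higher, 4 with a raw p under 0.05) and adipocyte markers (5 of 5 and 3) were mostly higher as well. Over all genes 3.98% were higher at that raw p, and 2.56% without mouse 1. None of these markers had an adjusted p under 0.05 between old-OSKM and old mice (limma). The adipocyte markers Adipoq, Plin1, Cidec and Lep were low in old mice, with means of -3.14, -3.26, -3.19 and -4.13. Many of their values recurred at nearly the same low level, as Lep did between -4.29 and -4.24 in most mice. The size of their differences is therefore uncertain. The fibroblast sum was 70.4 in old-OSKM mouse 4 and 39.5 in mouse 1, while 4 of 5 adipocyte markers were highest in mouse 1 (Adipoq at 1.12, against at most -0.49 elsewhere) and only Fabp4 was highest in mouse 4, which set the sum of 13.4 there against 10.7 in mouse 1. Acinar markers such as Cela2a and Ctrb1 were among the highest genes of the table, with the same value in every mouse for this pair, but quantile normalization fixes the values of those ranks, so that their levels cannot show the acinar content of a mouse. The acinar markers Ptf1a and Bhlha15 were lower in rank. They stood at 2.58 and 3.39 in mouse 1, at 1.74 and 3.79 in mouse 4, and at means of 2.83 and 3.71 in old mice. Neither had a raw p under 0.05 between old-OSKM and old mice (limma). The 7 islet beta cell markers summed to 66.3 in mouse 1, the lowest of 13, and to between 98.3 and 429 in the others. The part of these cells in the values of the members was not tested.

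**Figure D3:**
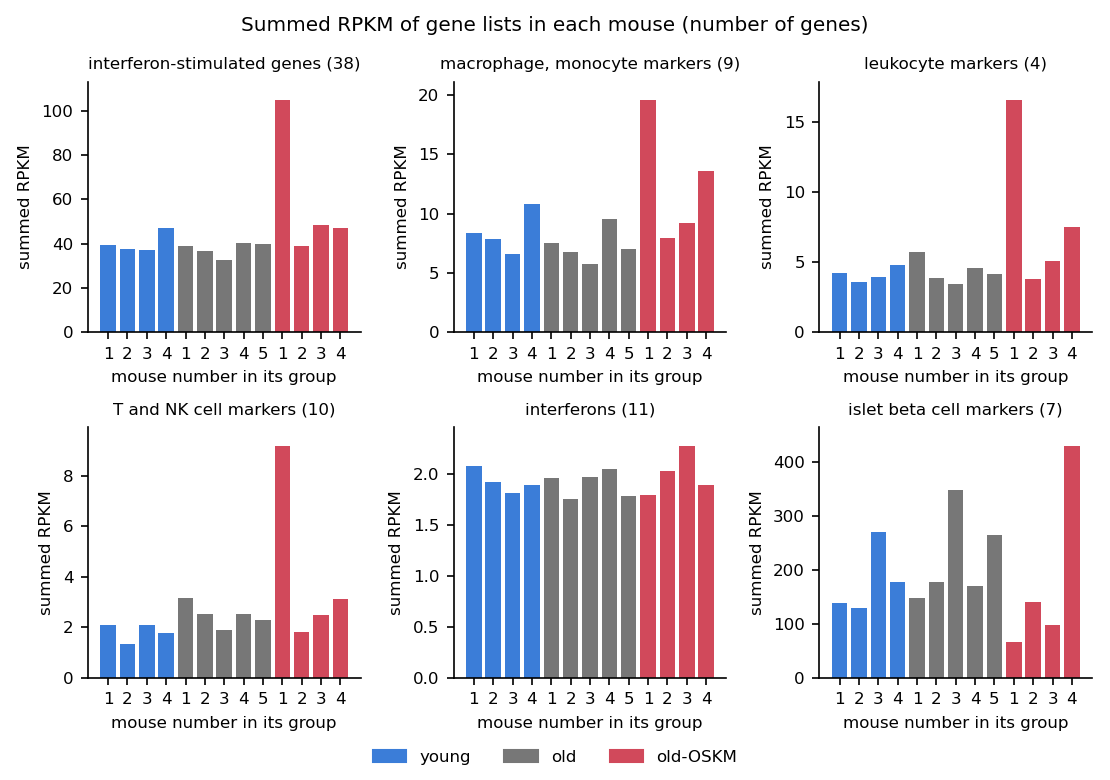
Summed RPKM of the members and of 5 other gene lists in each mouse, with the bars coloured by group and numbered within it. Old-OSKM mouse 1 holds the highest bar for the members (105), the macrophage (19.6), leukocyte (16.6) and T and NK cell markers (9.18), and the lowest for islet beta cell markers (66.3). The bars of the 11 interferons (1.75 to 2.27) come mostly from bottom values of each library and cannot be read as a level.

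The first question was whether interferon-stimulated genes differed with age in the untreated pancreas. In old mice 28 of 38 members were lower and 10 higher than in young mice, with a median difference of -0.11 (range -0.78 to 0.53) against 0.00 over all genes. None of the members passed the rule for a called gene (fold change over 1.5 and raw p under 0.01, limma), which 0.886% of all genes passed, and none had a raw p under 0.05, as 5.52% of all genes did. No member separated the groups without overlap, as 2.71% of all genes did, and the smallest adjusted p of a member was 1.00. The most negative differences were those of Ifi44 (-0.78 ± 0.47, SE), Ifit3 (-0.58 ± 0.37) and Oasl1 (-0.56 ± 0.38), and the most positive was that of Mx2 (0.53 ± 0.42). All 3 IFIT genes and all 5 oligoadenylate synthetases had negative differences, from -0.58 to -0.28 and from -0.56 to -0.09, each smaller than 2 standard errors.

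The second question was whether the OSKM cycle left these genes changed in the old pancreas after recovery. Compared with old mice, 37 of 38 members were higher in old-OSKM mice, with a median difference of 0.64 (range -0.10 to 1.36) against -0.04 over all genes. Oasl1 and Oasl2 were called, a rule that 0.582% of all genes passed in this direction. A raw p under 0.05 was reached by 16 members (42.1%), all higher, against 3.98% of all genes, but the smallest adjusted p of a member was 0.547, and no member was under 0.05. In Irf1, Stat2 and Oasl1 the lowest old-OSKM mouse was above the highest old mouse, which holds for 1.02% of all genes. Without mouse 1, 33 of 38 members were still higher, the median was 0.29, none was called, and 6 members had a raw p under 0.05, against 2.56% of all genes. These 6 were Irf1, Stat2, Oasl1, Oasl2, Parp14 and Irgm1. Leaving out old-OSKM mouse 2, whose members lay at the level of the old mice, moved the counts the other way, to 11 called members and 27 with a raw p under 0.05. Over all 23366 genes, 272 were then called as higher and 1252 were higher at that raw p, against 136 and 931 with all mice. The member count at a raw p under 0.05 also fell to 6 without old mouse 3, to 10 without old mouse 2 and to 9 when only the compared groups were fitted. It fell to 3 with the mean scaled value of all genes as a covariate, each gene being centred and divided by its SD. In the same order, 678, 823, 831 and 515 of all genes were higher at that raw p. Over all settings tried, the main one included, Oasl1 was called in 18 and not in 4, and Oasl2 was called in 10 and not in 13.

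**Figure D4:**
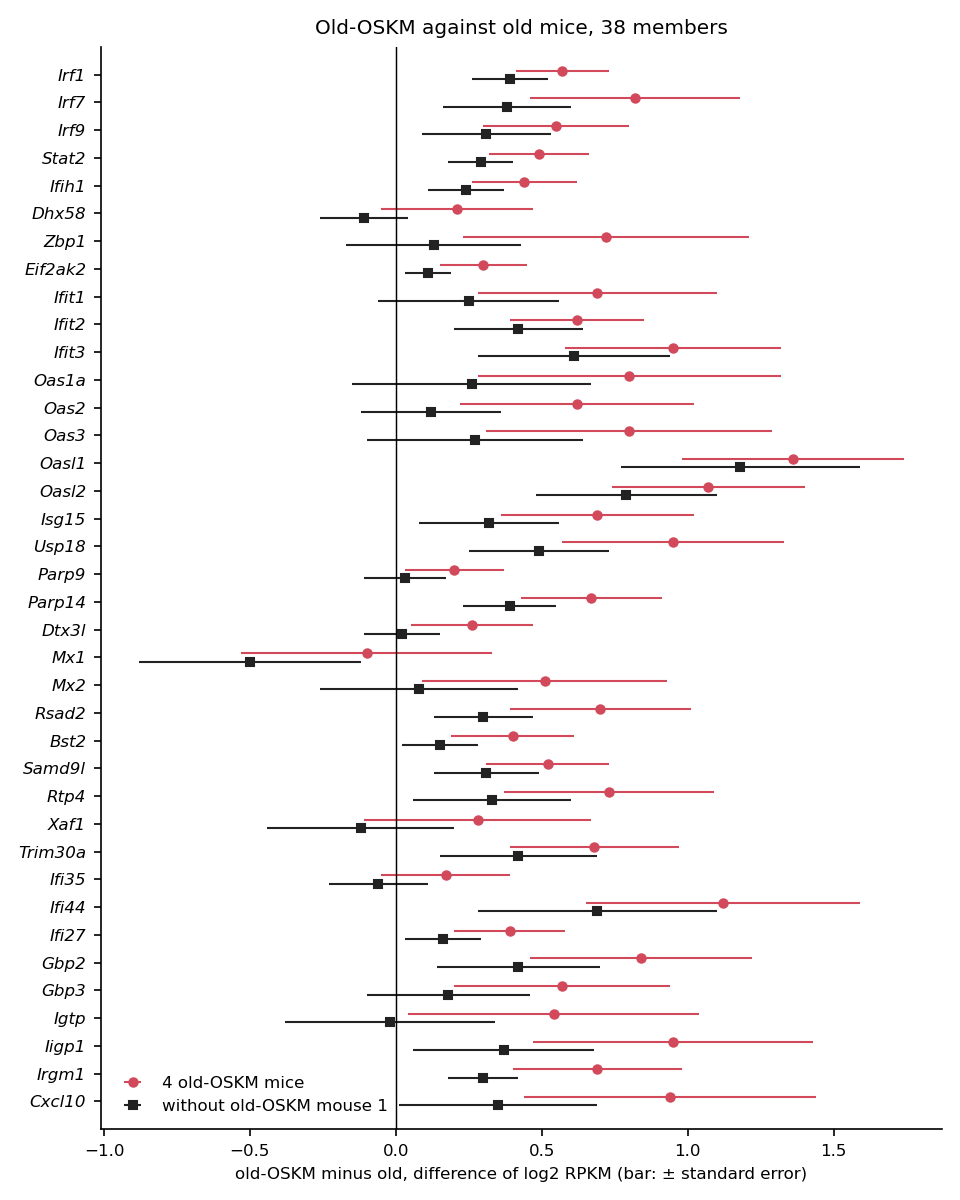
Difference of log2 RPKM between old-OSKM and old mice for each of the 38 members (± standard error from limma), with all 4 old-OSKM mice (red circles) and without old-OSKM mouse 1 (black squares). With all mice, 37 of 38 points lie to the right of 0, and without mouse 1 33 do, with the median moving from 0.64 to 0.29.

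Among the transcription factors, which turn the interferon signal into gene expression, all 4 members were higher in old-OSKM mice and 3 had a raw p under 0.05. Irf1, a factor that interferon gamma induces, had values of 1.12, 1.12, 0.99 and 1.33 in young mice, 0.92, 0.86, 0.74, 0.93 and 1.03 in old mice, and 2.00, 1.19, 1.04 and 1.62 in old-OSKM mice. The old-OSKM mice did not overlap with the old mice, although mouse 3 exceeded the highest old mouse by little. Old-OSKM exceeded old mice by 0.57 ± 0.16 (SE; raw p 0.0054), which missed the fold change of the rule at 1.48-fold, and without mouse 1 it was 0.39 ± 0.13 (raw p 0.011). Stat2, a subunit of the factor that binds the ISRE, stood at 0.02, -0.02, -0.08 and 0.40 in young, at 0.10, 0.09, -0.09, 0.06 and 0.14 in old, and at 1.15, 0.15, 0.49 and 0.41 in old-OSKM mice. Mouse 2 was only just above the highest old mouse. The difference was 0.49 ± 0.17 (raw p 0.015), and 0.29 ± 0.11 without mouse 1 (raw p 0.030).

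Irf9, the DNA-binding partner of STAT2, had values of 0.61, 0.63, 0.41 and 1.21 in young, 0.72, 0.66, 0.36, 1.05 and 0.86 in old, and 1.98, 0.61, 1.14 and 1.38 in old-OSKM mice. Here old-OSKM mouse 2 lay among the old mice, and the difference of 0.55 ± 0.25 did not reach a raw p of 0.05 (0.052), and it was 0.31 ± 0.22 without mouse 1. Irf7, the factor that amplifies type I interferon genes, measured -0.25, -0.60, -0.11 and 0.36 in young, -0.05, -0.46, -0.63, -0.29 and -0.26 in old, and 1.80, -0.39, 0.32 and 0.18 in old-OSKM mice. Mouse 1 was 1.44 above the next mouse of any group. The difference of 0.82 ± 0.36 (raw p 0.044) became 0.38 ± 0.22 without it (raw p 0.12).

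The oligoadenylate synthetase family, whose enzymatic members make the short adenylate chains that activate RNase L, held both called genes. Oasl1, a family member known to restrain Irf7 translation, had values of -2.38, -1.61, -3.17 and -1.99 in young mice, -2.38, -2.50, -3.82, -3.14 and -2.40 in old mice, and -0.96, -1.73, -1.22 and -2.07 in old-OSKM mice. All 4 old-OSKM mice were above all 5 old mice, while 2 young mice lay within the old-OSKM range. With 1.36 ± 0.38 (2.56-fold; raw p 0.0042) it had the largest difference of the 38 members, and it was 1.18 ± 0.41 without mouse 1 (raw p 0.016). Its level was low, below 1 RPKM in every mouse, and the antisense gene Gm13822 overlaps Oasl1, so reads may be shared. With a pseudocount of 1 Oasl1 was not called. Oasl2, the neighbouring gene on chromosome 5 (chr5:114896936-114912234, with Oasl1 at chr5:114923240-114937915, GRCm38), measured -0.28, -0.57, -1.14 and -0.20 in young, -0.77, -1.09, -1.52, -0.33 and -0.72 in old, and 1.04, -0.60, -0.08 and 0.38 in old-OSKM mice. Of these, old-OSKM mouse 2 was below the highest old mouse. The difference was 1.07 ± 0.33 (2.10-fold; raw p 0.0078), and 0.79 ± 0.31 without mouse 1 (raw p 0.027). The other synthetases, Oas1a, Oas2 and Oas3, had differences of 0.80 ± 0.52, 0.62 ± 0.40 and 0.80 ± 0.49, each with a raw p of at least 0.13, and at most 0.27 without mouse 1. Oas3 was the least abundant member, with a mean of -3.03 over the 13 mice.

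**Figure D5:**
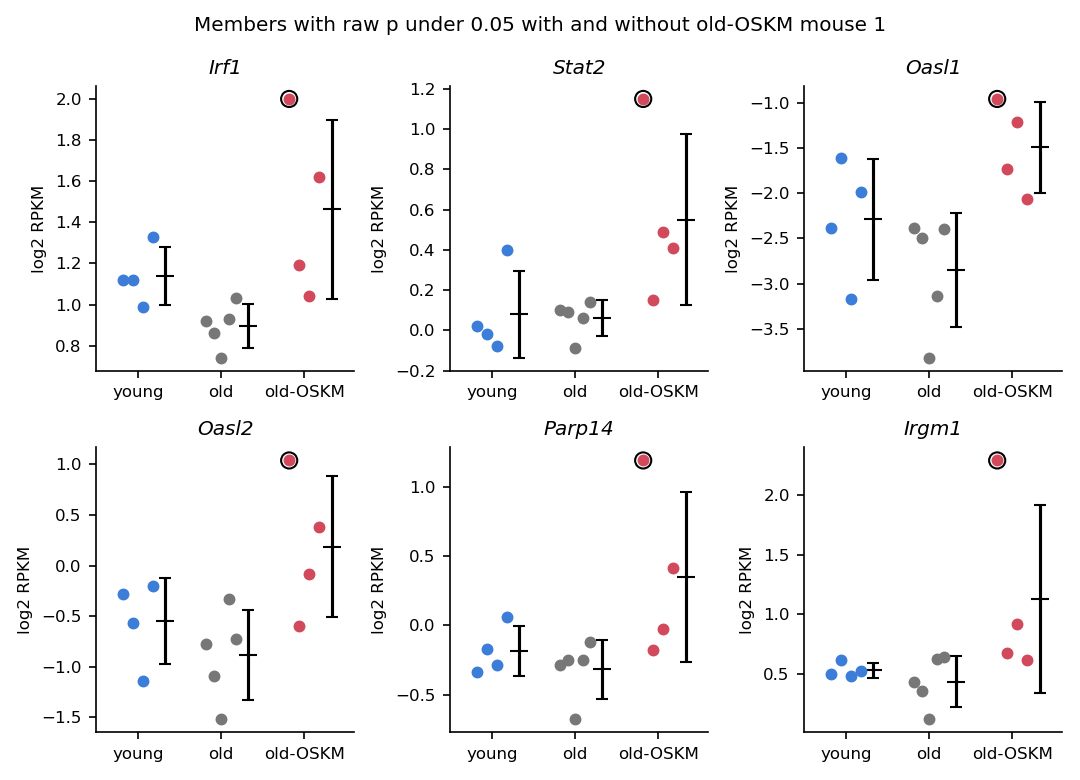
Log2 RPKM in each mouse (points) with the mean and SD of its group (bars) for the 6 members with a raw p under 0.05 between old-OSKM and old mice both with and without old-OSKM mouse 1, which is circled. Mouse 1 is the highest point in each panel, and in Irf1, Stat2 and Oasl1 all old-OSKM points lie above all old points.

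The IFIT proteins bind viral RNA that lacks the marks of host messenger RNA, and the genes of these 3 lie in a cluster of the family on chromosome 19. Ifit2 stood at -0.97, -0.78, -1.04 and -0.21 in young, -1.18, -0.93, -1.14, -0.85 and -1.05 in old, and 0.18, -0.89, -0.83 and -0.09 in old-OSKM mice. Mouse 2 fell just inside the old range. Its difference was 0.62 ± 0.23 (raw p 0.022), and 0.42 ± 0.22 without mouse 1 (raw p 0.078). Ifit3 had values of -0.56, -0.68, -0.29 and 0.19 in young, -1.35, -0.91, -1.34, -0.38 and -0.58 in old, and 1.03, -1.0, -0.25 and 0.35 in old-OSKM mice, a difference of 0.95 ± 0.37 (raw p 0.027) that became 0.61 ± 0.33 (raw p 0.094). Old-OSKM mouse 2 again lay among the old mice, and young mice 3 and 4 were above all old mice. Reads of Ifit3 may be shared with its near-identical neighbour Ifit3b, whose difference was 0.89 ± 0.34, so that the pair is not independent. Ifit1 differed by 0.69 ± 0.41 (raw p 0.12), and by 0.25 ± 0.31 without mouse 1.

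ISG15 is a ubiquitin-like protein that is attached to other proteins, and Usp18 removes it again and blocks the type I receptor. Usp18 measured -1.60, -1.08, -1.68 and -1.24 in young, -1.01, -1.10, -1.92, -1.58 and -1.97 in old, and 0.80, -1.02, -1.05 and -1.02 in old-OSKM mice. Old-OSKM mice 2, 3 and 4 had nearly the same value, just above the young mice and inside the old range, and mouse 1 was 1.81 above the next mouse. The difference of 0.95 ± 0.38 (raw p 0.028) was 0.49 ± 0.24 without it (raw p 0.064). Isg15 differed by 0.69 ± 0.33 (raw p 0.060), and by 0.32 ± 0.24 without mouse 1.

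Nucleic acid sensors detect viral RNA or DNA in the cell. Ifih1, the gene of the double-stranded RNA sensor MDA5, had values of 0.28, 0.15, 0.04 and 0.24 in young, 0.17, -0.12, -0.15, 0.34 and 0.14 in old, and 1.11, 0.07, 0.36 and 0.52 in old-OSKM mice. Mouse 2 lay within the old range and mouse 3 just above it. The difference was 0.44 ± 0.18 (raw p 0.031), and 0.24 ± 0.13 without mouse 1 (raw p 0.095). Zbp1, a sensor of Z-form nucleic acids, differed by 0.72 ± 0.49 and by 0.13 ± 0.30 without mouse 1, in which it stood 2.50 above the old mean. Eif2ak2, the kinase PKR that halts translation on double-stranded RNA, and Dhx58, the sensor LGP2, differed by 0.30 ± 0.15 and 0.21 ± 0.26, and by 0.11 ± 0.08 and -0.11 ± 0.15 without mouse 1.

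Parp14, an ADP-ribosyltransferase, had values of -0.34, -0.17, -0.29 and 0.06 in young, -0.29, -0.25, -0.68, -0.25 and -0.12 in old, and 1.19, -0.18, -0.03 and 0.41 in old-OSKM mice. Only old-OSKM mouse 2 overlapped with the old mice. The difference was 0.67 ± 0.24 (raw p 0.016), and 0.39 ± 0.16 without mouse 1 (raw p 0.033). Its partners in the interferon response, Parp9 and the ubiquitin ligase gene Dtx3l, overlap each other on opposite strands, and the library kit does not mark strand, so their reads could not be fully told apart. They differed by 0.20 ± 0.17 and 0.26 ± 0.21, and by 0.03 and 0.02 without mouse 1.

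The group of other antiviral effectors has 11 members, of which 10 were higher in old-OSKM than in old mice and 4 had a raw p under 0.05 (Ifi44, Samd9l, Trim30a and Rsad2). Without mouse 1, 8 were higher and none had a raw p under 0.05. Ifi27, which encodes a small membrane protein of mitochondria, was the most abundant member of all 38, with 3.57, 3.36, 3.27 and 3.39 in young, 3.56, 3.38, 3.26, 3.39 and 3.15 in old, and 4.44, 3.57, 3.75 and 3.21 in old-OSKM mice. Old-OSKM mouse 4 was close to the lowest old mouse, and the difference was 0.39 ± 0.19 (raw p 0.066), or 0.16 ± 0.13 without mouse 1. Bst2, the gene of tetherin, which holds budding virus at the cell surface, was the next most abundant. It measured 1.48, 1.31, 1.62 and 1.65 in young, 0.99, 1.24, 1.36, 1.49 and 1.59 in old, and 2.51, 1.49, 1.52 and 1.44 in old-OSKM mice. All mice but old-OSKM mouse 1 lay between 0.99 and 1.65, and the difference was 0.40 ± 0.21 (raw p 0.079), or 0.15 ± 0.13 without that mouse.

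Rsad2, the gene of viperin, which makes a nucleotide that stops viral polymerases, had values of -0.36, -0.63, -0.06 and 0.02 in young, -0.56, -0.52, -0.63, -0.19 and -0.89 in old, and 1.34, -0.25, -0.36 and -0.17 in old-OSKM mice. Apart from mouse 1 the old-OSKM mice lay within the range of the young mice. The difference of 0.70 ± 0.31 (raw p 0.046) became 0.30 ± 0.17 without mouse 1 (raw p 0.11). Ifi44 stood at -1.17, -1.38, -1.94 and -0.65 in young, -2.48, -1.38, -3.06, -1.72 and -1.68 in old, and 0.34, -1.80, -0.80 and -1.51 in old-OSKM mice, with a difference of 1.12 ± 0.47 (2.18-fold; raw p 0.034), the second largest of the members. Old-OSKM mice 2 and 4 were inside the old range, and without mouse 1 it was 0.69 ± 0.41 (raw p 0.12).

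Samd9l, an antiviral factor that halts translation, measured 0.22, 0.09, -0.04 and 0.55 in young, -0.06, -0.04, -0.31, -0.04 and 0.08 in old, and 1.06, 0.00, 0.03 and 0.69 in old-OSKM mice. Mice 1 and 4 were above all old mice and mice 2 and 3 were not. The difference was 0.52 ± 0.21 (raw p 0.030), and 0.31 ± 0.18 without mouse 1. Trim30a, a ubiquitin ligase that dampens inflammatory signalling, had values of -0.62, -0.74, -1.33 and -0.11 in young, -0.58, -0.70, -1.28, -0.67 and -0.74 in old, and 0.65, -0.84, -0.21 and -0.07 in old-OSKM mice. Old-OSKM mouse 2 lay inside the old range, and the difference was 0.68 ± 0.29 (raw p 0.042), or 0.42 ± 0.27 without mouse 1.

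The Mx genes belong to a family of dynamin-like antiviral GTPases, but RefSeq lists both Mx1 and Mx2 as transcribed pseudogenes in the reference mouse strain, and both were low. Mx2 had values of -3.64, -2.91, -3.69 and -2.13 in young, -2.51, -2.34, -2.50, -2.50 and -2.95 in old, and -0.75, -2.95, -2.15 and -2.33 in old-OSKM mice. Old-OSKM mouse 2 equalled the lowest old mouse, and the difference from old mice was 0.51 ± 0.42 (raw p 0.24), or 0.08 ± 0.34 without mouse 1. Mx1 was the 1 member with a negative difference, -0.10 ± 0.43 (-0.50 ± 0.38 without mouse 1), with -1.63 in mouse 1, -2.11 in mouse 4 and -3.78 and -3.77 in mice 2 and 3, and its sign turned when a pseudocount of 1 or 0.1 was added, with which 38 of 38 members were higher. The remaining effectors were Rtp4 (0.73 ± 0.36), Xaf1 (0.28 ± 0.39) and Ifi35 (0.17 ± 0.22), which were at 0.33, -0.12 and -0.06 without mouse 1.

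Interferon gamma induces families of GTPases that attack the vacuoles of intracellular pathogens, and all 5 such members were higher in old-OSKM mice. Irgm1, a regulator of the other immunity-related GTPases, had values of 0.50, 0.62, 0.48 and 0.53 in young, 0.43, 0.36, 0.12, 0.63 and 0.64 in old, and 2.29, 0.68, 0.92 and 0.62 in old-OSKM mice. Mice 1, 2 and 3 were above all old mice, mouse 4 was not, and the young mice were within 0.14 of each other. The difference of 0.69 ± 0.29 (raw p 0.033) became 0.30 ± 0.12 without mouse 1 (raw p 0.027). Gbp2, a guanylate-binding protein, measured -0.13, -0.12, -0.25 and 0.60 in young, 0.03, -0.23, -0.47, 0.13 and 0.67 in old, and 2.13, -0.01, 0.68 and 0.67 in old-OSKM mice. Old mouse 5 was as high as old-OSKM mice 3 and 4. Its difference was 0.84 ± 0.38 (raw p 0.048), and 0.42 ± 0.28 without mouse 1 (raw p 0.16).

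Iigp1, Gbp3 and Igtp differed by 0.95 ± 0.48, 0.57 ± 0.37 and 0.54 ± 0.50, none with a raw p under 0.05, and by 0.37 ± 0.31, 0.18 ± 0.28 and -0.02 ± 0.36 without mouse 1. Iigp1 exceeded the next mouse by 1.88 in mouse 1, the widest such gap of the 38 members. Igtp overlaps Irgm2 on the same strand. Cxcl10, a chemokine that draws T cells, was the member that lay furthest above the old mean in mouse 1, by 2.70. Its values were -1.99, -2.38, -2.07 and -1.89 in young, -1.44, -2.15, -1.96, -1.41 and -2.44 in old, and 0.82, -2.02, -0.62 and -1.94 in old-OSKM mice. Mice 1 and 3 were above all untreated mice and mice 2 and 4 among them, and the difference of 0.94 ± 0.50 (raw p 0.085) became 0.35 ± 0.34 without mouse 1 (raw p 0.31).

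The third comparison set the old-OSKM mice against the young mice, and it shares its treated mice with the second. The median difference of the members was 0.47 (range -0.15 to 1.14) against -0.04 over all genes, and 37 of 38 were higher, Mx1 being the exception again. No member was called, where 0.454% of all genes were called as higher, and 2 members had a raw p under 0.05, against 2.91% of all genes. These were Stat2 (0.47 ± 0.18, raw p 0.024) and Mx2 (1.05 ± 0.44, raw p 0.036), and the smallest adjusted p of a member was 0.706. Usp18 was the 1 member whose old-OSKM and young mice did not overlap, as in 1.09% of all genes. Without old-OSKM mouse 1 no member had a raw p under 0.05 in this comparison, Stat2 being at 0.27 ± 0.12 and Mx2 at 0.62 ± 0.35, 29 of 38 members were higher and the median was 0.16. Without young mouse 4, the young mouse with the highest members, 9 had a raw p under 0.05, without old-OSKM mouse 4 also 9, without old-OSKM mouse 3 5, and without old-OSKM mouse 2 19. In the same order, 784, 700, 871 and 1001 of the 23366 genes were higher at that raw p, against 679 with all mice. For Oasl1 the difference from young mice was 0.79 ± 0.40, beside -0.56 ± 0.38 for old against young mice and 1.36 ± 0.38 for old-OSKM against old mice, and for Cxcl10 the 3 values were 1.14 ± 0.53, 0.20 ± 0.50 and 0.94 ± 0.50. Without mouse 1 the differences from young mice were 0.61 ± 0.43 for Oasl1 and 0.56 ± 0.35 for Cxcl10. The comparisons share mice, so these values are not independent.

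The rest of the pathway was read from 106 further genes in lists by role. The 11 interferon genes themselves, the ligands, had a median difference of -0.11 between old-OSKM and old mice, 4 were higher, and none had a raw p under 0.05 in any comparison. Ifna1 and Ifna2 lay between -2.82 and -2.41 in all mice, and old-OSKM mouse 1 was not the highest mouse for any interferon gene. Most interferon genes followed the same pattern from mouse to mouse whichever gene it was, as Ifna1, Ifnb1 and Ifnl2 did, so these are bottom values of each library, which cannot show whether a transcript differed. Of the 6 receptor genes 3 were higher and none had a raw p under 0.05. The receptor subunit gene Ifnar1 measured 0.45, 0.22, 0.36 and 0.27 in old-OSKM mice, inside the range of 0.18 to 0.42 of the untreated mice but for mouse 1, and Ifnlr1, of the type III receptor, differed by -0.36 ± 0.19.

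Among the 5 Janus kinase and STAT genes none had a raw p under 0.05. The kinase gene Tyk2 differed by 0.07 ± 0.06. Of the 6 other interferon regulatory factors, Irf4, a factor of lymphocytes, was higher by 0.70 ± 0.32 (raw p 0.048), and by 0.40 ± 0.27 without mouse 1 (raw p 0.17). Among 13 sensors and adaptors 10 were higher and 2 had a raw p under 0.05, namely the DNA sensor gene Ifi204 (0.79 ± 0.28, raw p 0.017) and the kinase gene Ikbke (0.38 ± 0.15, raw p 0.027). Without mouse 1 none of the 13 had, at 0.60 ± 0.29 for Ifi204 and 0.34 ± 0.17 for Ikbke, and the median of the list went from 0.29 to 0.08. None of the 9 negative regulators had a raw p under 0.05 between old-OSKM and old mice, and Samhd1, which depletes nucleotides, and Socs1, which blocks Janus kinases, differed by 0.34 ± 0.19 and 0.25 ± 0.33, and by 0.09 ± 0.07 and 0.05 ± 0.34 without mouse 1.

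A further 56 interferon-stimulated genes, which are not among the 38, gave a like picture. They are not a separate measure throughout, since some overlap members and may share reads with them. The annotated span of Ifi27l2a contains that of Ifi27, that of Ifit1bl1 contains Ifit1, and Irgm2 overlaps Igtp. Of these, 53 were higher in old-OSKM than in old mice, with a median of 0.45, and 11 had a raw p under 0.05, all higher. Old-OSKM mouse 1 was the highest mouse in 48, and their summed RPKM was 183 in it against 91.1 to 118 in the others. Without it 40 were higher, with a median of 0.14 and 4 at a raw p under 0.05. Ifitm1, a restriction factor of viral entry, had the smallest raw p. It measured 0.08, -0.06, 0.24 and 0.07 in young, 0.11, -0.18, -0.26, 0.15 and -0.11 in old, and 0.61, 0.21, 0.35 and 0.44 in old-OSKM mice. All 4 old-OSKM mice were above all 5 old mice, by 0.46 ± 0.11 (raw p 0.0010, adjusted p 0.547), and by 0.39 without mouse 1 (raw p 0.0041). Ifi27l2a, a relative of Ifi27, was called, with 1.80, 0.50, 0.64 and 1.46 in old-OSKM mice and -0.82 to 0.52 in old mice, a difference of 1.04 ± 0.34 (raw p 0.0098), and it was not called without mouse 1 (0.80 ± 0.33, raw p 0.036). Nlrc5, the activator of MHC class I genes, was called between old-OSKM and young mice only (1.48 ± 0.43, raw p 0.0052), a call lost without mouse 1 (raw p 0.013), and it was also 0.92 ± 0.41 higher in old than in young mice (raw p 0.044).

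The members varied together from mouse to mouse. Over the 703 pairs of members the median Pearson correlation of log2 RPKM across the 13 mice was 0.77, and it was 0.40 across the 12 mice without old-OSKM mouse 1, with 85.8% of pairs above 0. With each value taken relative to the mean of its group the medians were 0.74 and 0.39. The pairs share libraries and the correlations are a description. Of the 11606 genes outside the list with a mean log2 RPKM of at least -1, the 15 most like the mean profile of the members, by correlation of group-centred values over the 13 mice, had r from 0.929 to 0.965 and included Ms4a6c, Icam1, Adgre1, Tap1, Lgmn, Fyb, Tgtp2, Lgals3, Tgtp1, Slfn2, Ctss, Clec4a1 and Nckap1l. Of the genes named, Tgtp1 and Tgtp2 belong to the pathway lists, and Adgre1, the gene of the macrophage antigen F4/80, is in the macrophage list. Without old-OSKM mouse 1 the correlations of these 15 genes were 0.694 to 0.915. Of the 100 most like genes 21 are in the pathway lists, which hold 71 of the 11606 genes compared.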

How the data were processed

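Total RNA of the pancreas, depleted of ribosomal RNA, was sequenced in 13 female mice, 1 library per mouse, so that replicates are mice. The authors aligned paired reads to mm10 with STAR 2.3.0e, estimated RPKM with Casper and deposited log2 RPKM values, quantile normalized. Ranked within each mouse, values of equal rank lay within 0.0116 of each other. The methods of the study also describe a correction for the read total of each sample, which is not visible in these values and was not added here. The deposited table holds no counts, so the depth per library is unknown, and the kit does not mark strand, so overlapping and antisense genes share reads. Members with an overlapping gene include Irf1, Irf7, Irf9, Oasl1 and Cxcl10. Groups and ages come from the labels. For old-OSKM mice these give 58 weeks, made up of 55 weeks, 1 week of treatment and 2 weeks of recovery. The methods of the study give 55.

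The 3 groups were fitted together with limma 3.58.1 in R 4.3.3 over 23366 genes, without a filter. Calls required both a raw p under 0.01 and more than a 1.5-fold difference, and p was adjusted over all genes by Benjamini-Hochberg. The fit was tested on simulated data. Values per mouse are given for members with a raw p under 0.05 in any comparison, the member of each role with the smallest raw p, and the 5 most abundant, beside up to 2 genes per pathway list and each called one. The members and lists were chosen with earlier results of these data known. Promoters are RefSeq sequences of GRCm38.p6 matched by gene identifier (27 of 38). Tables and figures were made with Python 3.11.15, pandas 2.3.3, numpy 2.4.6 and matplotlib 3.10.9. Alternatives were a pseudocount of 1 or 0.1, a filter at a mean log2 value of -1, repeated quantile normalization, median centring, only the compared groups, trend and robust moderation, 2 covariates (the mean scaled value of all genes and the run of sample identifiers), and each mouse left out. For the scaled values each gene was centred on its mean over the mice and divided by its SD. Some genes that this rule names are not reported here.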

Additional observations from a re-analysis of the deposited data

Results flagged for a closer look

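In 6 of 63 groups of mice, over the 21 members given by mouse, the highest or lowest mouse lay further from its group than Dixon's 95% critical value allows. Chance gives about 1 in 20 for a single group. The groups reuse the same mice and the members vary together, so 6 of 63 cannot be set against that rate. Of the 6, 3 concern old-OSKM mouse 1 and are not independent. Usp18 was 0.80 in it, with the next old-OSKM mouse at -1.02. Rsad2 was 1.34 in it, with the next at -0.17. Bst2 was 2.51 in it, with the next at 1.52. Among old mice, Mx2 was -2.95 in mouse 5, with the next at -2.51, and Trim30a was -1.28 in mouse 3, with the next at -0.74. Gbp2 was 0.60 in young mouse 4, with the next young mouse at -0.12.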

How the results depend on the processing

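No member had an adjusted p under 0.05 in any of the 23 settings (limma), where the smallest ranged from 0.179 to 0.991 for old-OSKM against old, 0.455 to 1.00 for old against young and 0.335 to 1.00 for old-OSKM against young mice. Called members between old-OSKM and old mice numbered 0 with a pseudocount of 1, and 1 each with the filter on low values (27 members tested), with only the compared groups, with the mean scaled value of all genes as covariate and with the run of sample identifiers as covariate, beside 2 in the report. Members at a raw p under 0.05 numbered 9 with only the compared groups and 3 with the mean scaled value as covariate, and for old-OSKM against young mice 6 with the filter and 0 with each of those settings. Beside the 9, 3 and 6 members, 831 and 515 of all genes, and 305 of the 11633 under the filter, were higher at that raw p. For old against young mice 1 member, lower, passed with only the compared groups. With each mouse left out in turn, called members ranged from 0 to 11, members at a raw p under 0.05 from 6 to 27 and the median from 0.29 to 0.85 for old-OSKM against old mice. The same ranges were 0 to 3, 0 to 19 and 0.16 to 0.71 for old-OSKM against young mice, and 0 to 0, 0 to 1 and -0.16 to -0.04 for old against young mice. The old-OSKM against old median was 0.31 with a pseudocount of 1, which shrinks differences of low genes by construction, and 0.38 with the mean scaled value as covariate. No called value changed sign. Called genes of the whole table, 207, 176 and 146 in the 3 comparisons in the order of the report, numbered 16, 2 and 8 with a pseudocount of 1, 116, 77 and 76 with 0.1, and 78, 62 and 40 with the filter, which tested 11633 genes. Between old-OSKM and old mice they numbered 90 with the mean scaled value as covariate, and 94, 338 and 284 without old-OSKM mouse 1, 2 or 3. Causes were not tested beyond the smaller number of genes under the filter. No paired analysis was possible because the labels give no replicate numbers shared between groups. The unknown depth limits what the low members, such as Oas3, Mx1 and Oasl1, can show.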
